A study of Homo sapiens with 2 samples.

Results

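The genes described here are 6 interferon-induced effectors that act largely at membranes and at the entry or exit of viruses: RSAD2, IFITM1, PLSCR1, BST2, IFI44 and IFI44L. They were chosen as the probe sets whose only symbol in the platform annotation is one of these names, which gave 6 probe sets, 1 for each gene, of the 14884 genes named on the array. The choice was made with the difference between the arrays known, so the members' own differences are given as a description without a test. The first sample was HT1080, an established human fibrosarcoma cell line, carrying an shRNA (a short hairpin RNA that triggers degradation of a matching messenger RNA) against cMyc. The second was HT1080 carrying a non-targeting control shRNA. Per the labels' protocols both were infected with virus that delivered the hairpin and harvested 48 hours later, while the series' design text speaks of transfection. Both samples therefore had a hairpin, and no uninfected sample was analysed here. There was 1 Affymetrix Human Gene 2.0 ST array for each, which reads a gene through a set of short probes summarised to 1 log2 value, and the hairpin sequences were not analysed here.

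Interferons are secreted proteins that bind receptors on the cell surface and, through the kinases JAK1 and TYK2, activate a transcription factor complex that contains IRF9. The complex binds interferon-stimulated response elements in promoters and switches on a large set of genes, many of them antiviral. Some products act on viruses as they cross a membrane, either on the way into the cell or on the way out. Cells of mesenchymal origin, such as fibroblasts and sarcoma lines, generally respond to type I interferon in this way.

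The members shared a promoter sequence. Promoters were not read in the choice, but interferon-induced genes were chosen, and the response element is known from promoters of such genes. Its presence in the members is therefore not independent of the choice. The RefSeq promoter table (GRCh38.p14, from 250 bases before to 50 bases after each annotated start) was searched on both strands for the core of the response element: the letters GAAA, any 2 bases and GAAA again, which read TTTC, any 2 bases and TTTC on the other strand. All 6 members had at least 1 match at 1 or more of their annotated starts, whereas 1195 of all 27305 genes in the table did (4.38%), or 1255 of 35116 promoters (3.57%). Among measured genes with a promoter in the table, 16 of 30 other intracellular interferon effectors and 3 of 10 other membrane and entry-stage antiviral genes held a core. A match is a stretch of letters and not evidence of a bound factor. The stretches that hold the matches are shown because, of the elements searched, this is the only one found in all the members. The matched bases are in capitals, and each stretch is read 5′ to 3′ on the strand of its gene.
RSAD2, chr2:6877612-6877661, plus strand, second annotated start: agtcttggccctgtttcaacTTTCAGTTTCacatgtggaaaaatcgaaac
IFITM1, chr11:313980-314043, plus strand: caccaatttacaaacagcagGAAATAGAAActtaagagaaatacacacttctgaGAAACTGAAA
PLSCR1, chr3:146544657-146544706, minus strand, first annotated start: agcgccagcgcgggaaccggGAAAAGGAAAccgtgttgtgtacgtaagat
BST2, chr19:17405725-17405780, minus strand: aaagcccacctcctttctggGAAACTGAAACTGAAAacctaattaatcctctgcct
IFI44, chr1:78649751-78649788, plus strand, first annotated start: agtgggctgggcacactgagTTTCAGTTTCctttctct
IFI44L, chr1:78620264-78620404, plus strand: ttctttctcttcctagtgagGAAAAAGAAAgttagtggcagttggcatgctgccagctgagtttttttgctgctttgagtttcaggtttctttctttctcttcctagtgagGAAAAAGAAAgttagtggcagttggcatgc

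The matches differed in number, strand and place. BST2 had 2 overlapping copies of the core, which begin at positions -130 and -124 from its start. IFITM1 had 2, which begin at positions -40 and -6, and the second of them runs across the start itself. IFI44L had 2 copies, at positions -164 and -73, or 91 bases apart, inside a direct repeat in which 85 bases in a row are identical. RSAD2, PLSCR1 and IFI44 had 1 each. IFI44 and RSAD2 carried the same letters, TTTCAGTTTC, on the opposite strand, which is the reverse complement of the GAAACTGAAA of BST2 and of the second copy in IFITM1. RSAD2 has 2 annotated starts 11892 bases apart, and the core lay only at the second of them.

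Other elements were less shared. The gamma-activated site TTCNNNGAA, a palindromic element known from promoters that answer to interferon gamma, was found in 3 of the 6 members and in 9.38% of all genes in the table. BST2 had 2 such sites, the first of which overlaps its response element core by sharing the bases GAA, IFITM1 had 1 that overlaps the core at its start in the same way, and PLSCR1 had 1, beginning at position 20 after its first start. The E-box CACGTG, bound by MYC with MAX among other factors, was found in 0 of the 6 members and in 8.77% of all genes. No match says only that these letters are not in this window.

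**Figure D1:**
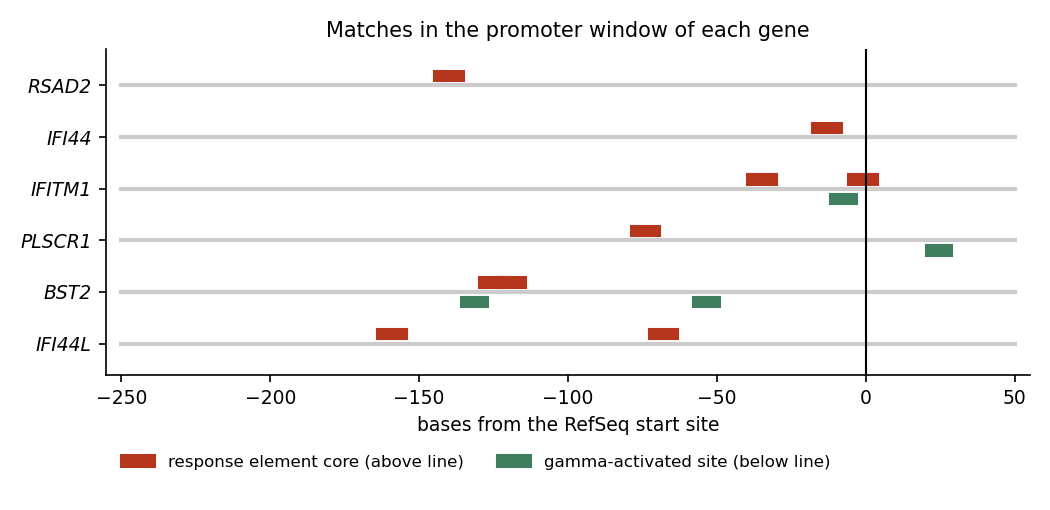
Positions of the matches in the promoter window of each member, in bases from the RefSeq start site (black line at 0), for the annotated start whose stretch is given in the text. Red boxes above each line are response element cores and green boxes below it are gamma-activated sites. All 6 genes have a core, and the 2 copies of BST2 overlap.

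Each member was higher on the cMyc shRNA array. As a group their log2 differences, cMyc shRNA minus control shRNA, had a median of 2.98 (7.90-fold) and ran from 2.31 to 4.96. Over all 10258 measured genes, those whose mean over both arrays reached the median of all probe sets (3.70 on the log2 scale), the median was -0.01 and the quartiles were -0.31 and 0.26. All 6 members passed 2-fold and 4-fold higher and 0 passed 2-fold lower, against a background of 2.01% of measured genes that were higher by 2-fold or more and 4% that were lower by 2-fold or more. Since the members were chosen from this contrast, nothing is read from these counts. With 1 array in each group there is no spread between replicates and no test. The 1 repeat measurement available is technical: 416 genes had several measured probe sets, and from the gap between the 2 brightest of each gene a single log2 difference carried an SD of 0.34, which leaves out variation between cultures and between infections. Copies are among the pairs, and without those of identical values the SD was 0.35 over 390 genes. In cells measured in bulk, fewer responding cells and less RNA in each cell cannot be told apart.

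RSAD2 encodes viperin, an iron-sulphur enzyme of the endoplasmic reticulum and of lipid droplets that turns the nucleotide CTP into a chain terminator of viral RNA synthesis. Its probe set (16876764, NM_080657) had a log2 level of 9.58 on the cMyc shRNA array and 4.62 on the control array. The difference of 4.96 (31.1-fold higher) was the widest of the members and ranked 4 among all measured genes. The control value lay 0.92 above the median of all probe sets, so both arrays read RSAD2 above that level.

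IFITM1 and PLSCR1 act where a virus enters. IFITM1 is a small transmembrane protein of the cell surface that hinders fusion of viral and cellular membranes, and PLSCR1 is a calcium-dependent phospholipid scramblase that also limits fusion of some viruses. IFITM1 (probe set 16720085) had a log2 level of 9.78 with the cMyc shRNA and 6.53 with the control shRNA, a difference of 3.25 (9.48-fold higher), rank 19. PLSCR1 (probe set 16960186) had 8.68 with the cMyc shRNA and 5.97 with the control shRNA, a difference of 2.72 (6.57-fold higher), rank 27. Both genes read well above the median of all probe sets on the control array too, by 2.83 for IFITM1 and 2.27 for PLSCR1. Their folds therefore rest on values away from the low end on both arrays.

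BST2, or tetherin, acts at exit: it spans the membrane at one end, is held in it by a GPI lipid anchor at the other, and ties budding virions to the cell. BST2 (probe set 16870200) had a log2 level of 5.39 on the cMyc shRNA array and 2.98 on the control array, a difference of 2.41 (5.33-fold higher), rank 33. The control value was below the median of all probe sets. BST2 passed the level filter only through the cMyc shRNA array, so a difference was built into its passing. With low values raised to that median it was 3.22-fold higher.

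IFI44 and IFI44L are neighbouring, related genes of cytoplasmic proteins. They have been described as modulators of the interferon response, and their place among membrane effectors is less settled than that of the other members. IFI44 (probe set 16666509) had a log2 level of 9.18 with the cMyc shRNA and 4.76 with the control shRNA, a difference of 4.41 (21.3-fold higher), rank 6. IFI44L (probe set 16666485) had 4.94 with the cMyc shRNA and 2.63 with the control shRNA, a difference of 2.31 (4.95-fold higher), rank 37. IFI44L, like BST2, passed the level filter only through the cMyc shRNA array, and it was 2.36-fold higher with low values raised to the median of all probe sets. The deposited table holds no detection call, so whether the 2 low control values are signal or background is unknown.

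**Figure D2:**
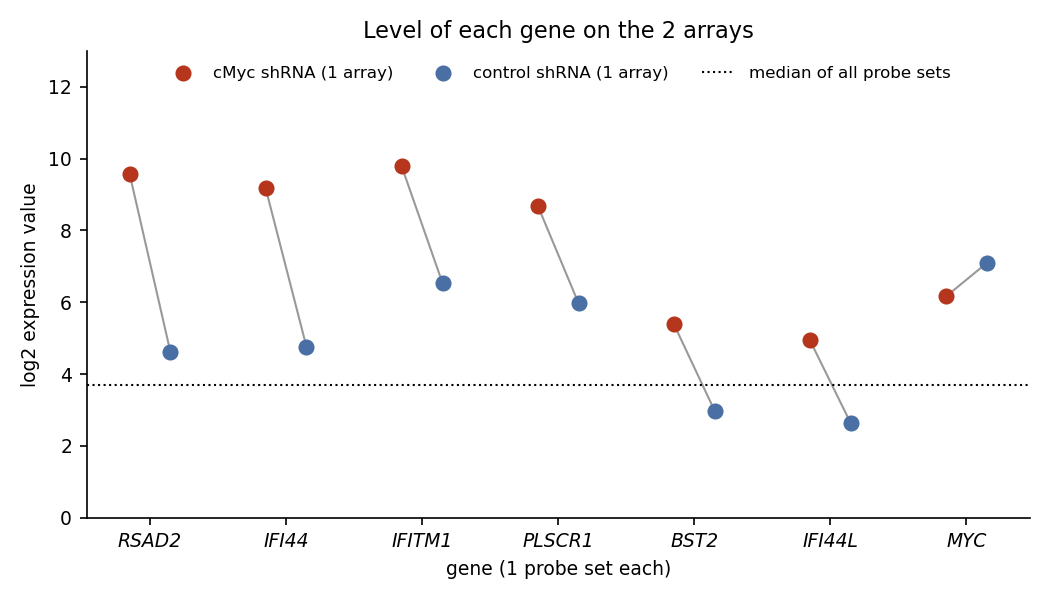
Log2 expression value of each member and of MYC on the cMyc shRNA array (red) and on the control array (blue), 1 probe set and 1 array each. The dotted line is the median of all probe sets, 3.70. All 6 members lie higher with the cMyc shRNA, MYC lies lower, and the control values of BST2 and IFI44L are under the line.

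The order of the members by difference was RSAD2, IFI44, IFITM1, PLSCR1, BST2 and IFI44L, and the first exceeded the last by 2.65 on the log2 scale. The technical SD of a gap between 2 genes was 0.48. The gap between IFI44 and IFITM1 was 1.17, which is 2.46 of those SDs. RSAD2 exceeded IFI44 by 0.54 and IFITM1 exceeded PLSCR1 by 0.53, each little more than 1 such SD. PLSCR1 over BST2 (0.30) and BST2 over IFI44L (0.11) were smaller than it. These last gaps rest on the low control values of BST2 and IFI44L, and with low values raised to the median of all probe sets they were 1.03 and 0.45, so the distances among the last 3 depend on how low values are treated. The number of cores in a promoter did not follow this order: the members with 2 cores stood at positions 3, 5 and 6.

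**Figure D3:**
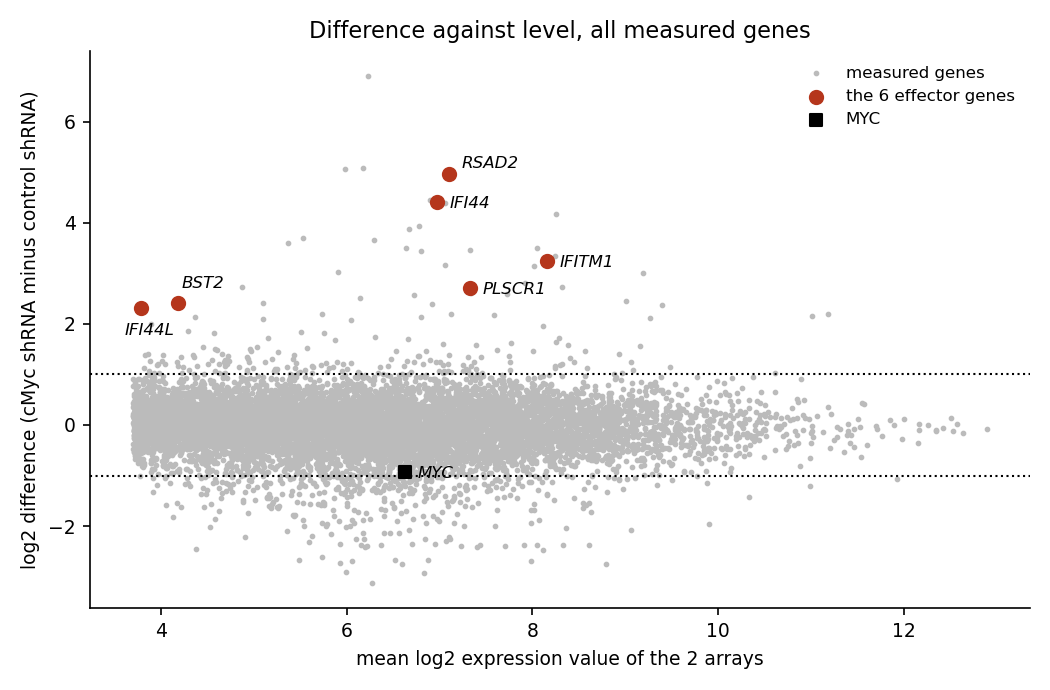
Log2 difference (cMyc shRNA minus control shRNA) against the mean log2 value of the 2 arrays for the 10258 measured genes (grey), the 6 members (red) and MYC (black). Dotted lines mark 2-fold. The members run from 2.31 to 4.96, and BST2 and IFI44L sit at the low end of the level axis.

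MYC, the target of the hairpin, had a log2 level of 6.16 with the cMyc shRNA and 7.09 with the control shRNA, a difference of -0.93 (1.91-fold lower, probe set 17072669). The direction was that of the label, and 43 of the 500 measured genes nearest to MYC in mean level had a difference as low. The table holds 53617 probe sets on each array, with medians of 3.73 for the cMyc shRNA and 3.68 for the control shRNA. Lists of mesenchymal, leukocyte, and epithelial and endothelial markers were read on both arrays. Of 15 listed mesenchymal markers, 9 were named and 7 measured, and 0 of the 7 passed 2-fold in either direction. FN1 had 12.6 with the cMyc shRNA and 12.4 with the control shRNA. LUM (2.54 with the cMyc shRNA and 2.28 with the control shRNA) and S100A4 (3.39 and 3.06) were below the level filter on both arrays. FBN1 (0.44), THY1 (0.36) and FN1 (0.15) had the highest differences and VIM (-0.59) and TWIST1 (-0.03) the lowest. The other probe sets of VIM differed by -0.95 and -1.02, the last past 2-fold lower. BST2 also marks plasma cells and plasmacytoid dendritic cells, and the list of leukocyte markers had 7 measured of 20, 0 of them past 2-fold, with a median difference of -0.08. Their linear values summed to 11.6 with the cMyc shRNA and 10.9 with the control shRNA on the log2 scale, most of it CD68, a lysosomal protein (0.91 higher). MZB1 (0.38), NKG7 (0.35), TCF4 (-0.23) and SDC1 (-0.31) lay closer to 0, CD14 and LYZ were below the level filter, and PTPRC and the dendritic markers CLEC4C and LILRA4 were not analysed here. Epithelial and endothelial markers had 4 measured of 12: CLDN7 (0.53), KRT19 (-0.46), KRT8 (-0.68) and KRT18 (-0.69, with 0.12 on its other probe set). Their median was -0.57, and 0.17 over all 9 named genes with no level filter. Both samples were HT1080, a single cell line, and whether any other cells were present was not tested.

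Close relatives of the members differed by less. IFITM3, the relative of IFITM1 that acts in endosomes, had a log2 level of 6.84 with the cMyc shRNA and 6.17 with the control shRNA, a difference of 0.67 (1.59-fold higher). IFITM2 had 9.65 with the cMyc shRNA and 9.73 with the control shRNA, a difference of -0.08. IFITM10 had a difference of 0.07 and the pseudogene IFITM4P 0.16. IFITM5, a relative known from bone, was below the level filter, with a difference of 0.30. IFITM1, IFITM2 and IFITM3 are so alike in sequence that probes for one may read another, and this was not resolved here. IFITM3 has 2 response element cores in its promoter, as many as IFITM1, so the same count of cores stood beside differences of 0.67 and 3.25.

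Among the scramblases, PLSCR4 had a log2 level of 6.32 with the cMyc shRNA and 5.13 with the control shRNA, a difference of 1.18 (2.27-fold higher), and PLSCR2 was below the level filter on both arrays, with a difference of 0.39. PLSCR4 holds 0 cores at either of its 2 annotated starts. RSAD1, named for the same radical SAM fold as RSAD2, had a difference of -0.67 (5.39 with the cMyc shRNA and 6.06 with the control shRNA). BST1, which shares only a historical name with BST2, was below the level filter, with a difference of -0.10. Of the other scramblases and flippases, TMEM41B (0.35), VMP1 (0.20), TMEM30A (0.13) and ANO6 (-0.22) were within 2-fold, and the 5 measured of 24 listed genes had a median of 0.20.

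The members' chromosomal neighbours were compared, taking the 3 nearest protein-coding genes on each side in the RefSeq gene table. Of 30 neighbours that are not themselves members, 15 were named on the array and 10 measured. PLSCR4 was the 1 of these 10 that reached 2-fold higher, 0 reached 2-fold lower, and their median difference was 0.13. RNF144A, next to RSAD2, differed by 0.26. CMPK2, the nucleotide kinase gene on the other side of RSAD2, had no named probe set and was not analysed here, and SOX11 beyond it (-0.18) was below the level filter. PTGFR (0.22) lies next to IFI44L. On the other side of the pair, ADGRL4 next to IFI44 had no named probe set, and ADGRL2 (-0.13) lies beyond it. GTPBP3 (0.06), TMEM221 (0.11) and NXNL1 (-0.32) lie around BST2, and PKP3 (0.16) beyond IFITM3. PLVAP (0.21) near BST2 and ZIC4 (-0.05) near PLSCR1 were below the level filter.

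**Figure D4:**
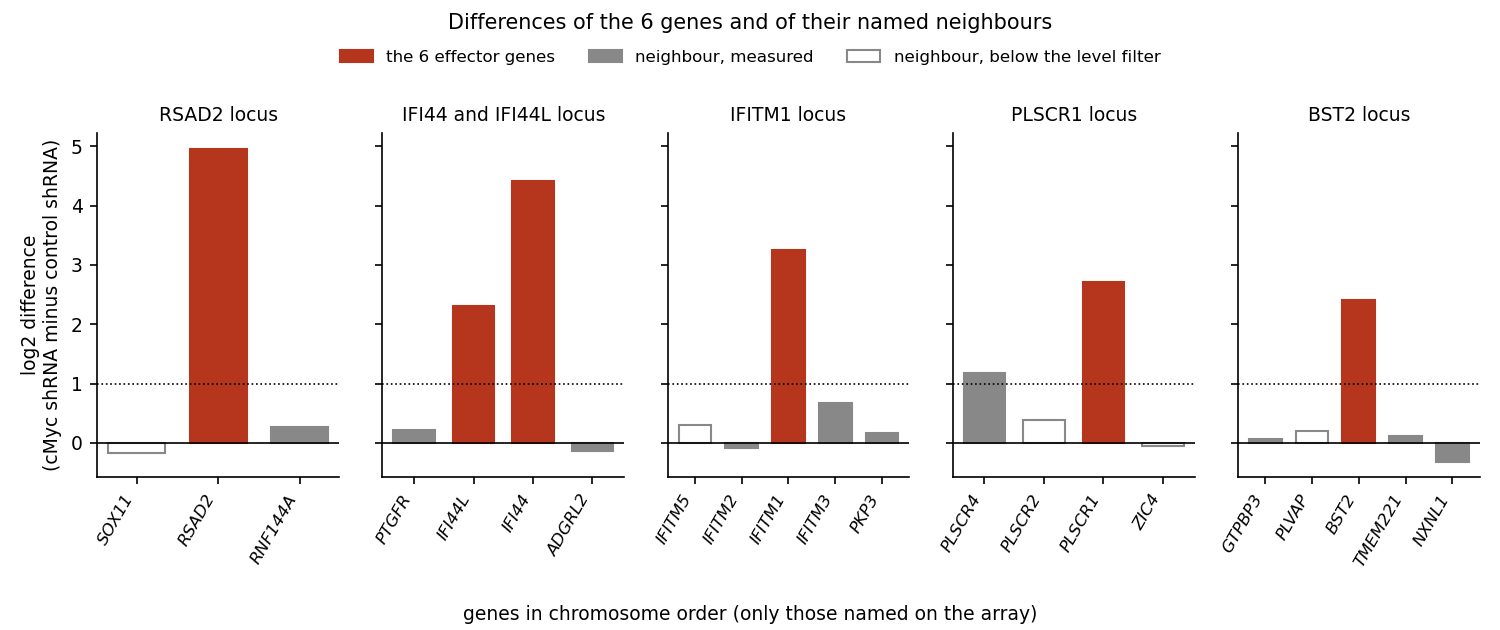
Log2 difference (cMyc shRNA minus control shRNA) of the members (red), of measured neighbours (grey) and of neighbours below the level filter (open), at each locus in chromosome order, for the genes named on the array. The dotted line is 2-fold higher. The members run from 2.31 to 4.96, and the highest neighbour is PLSCR4 at 1.18.

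Upstream of the members lie the genes that make and relay interferon signals. Of the 22 listed interferon ligands 0 had a named probe set, and IFNAR1 and IFNAR2 had none either, so they were not analysed here. All 5 measured receptors and kinases were within 2-fold: JAK2 (0.82), IFNGR1 (0.72), IFNGR2 (0.30), JAK1 (0.30) and TYK2 (-0.09). Of 9 measured transcription factors, 1 was at least 2-fold higher. It was IRF9, the DNA-binding subunit of the complex that recognises the response element, with a log2 level of 8.01 with the cMyc shRNA and 5.44 with the control shRNA, a difference of 2.57 (5.94-fold higher). The others were IRF1 (0.70), IRF8 (0.36), IRF3 (0.23), IRF5 (0.19), IRF2 (0.19), STAT3 (0.09), IRF7 (-0.02) and ETV7 (-0.23), and IRF4 (0.41) was below the level filter. The median of the list was 0.19.

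Negative regulators had a median of 0.32, with 2 of 7 measured genes past 2-fold higher and 0 past 2-fold lower. They were USP18, which blocks the interferon receptor, with a difference of 4.39 (21.0-fold higher), and TRIM21 at 1.64. CISH had 0.69, SOCS3 -0.42 and SOCS2 -0.54. Classical targets of interferon gamma had 1 of 5 measured genes at least 2-fold higher, the GTPase GBP3 at 1.95, with IRF1 (0.70) and CXCL11 (0.69) next and WARS1 (0.14) and SOCS1 (0.09) lowest. Of the 5 named genes below the level filter, GBP4 (1.64) and CXCL10 (1.18) were also past 2-fold higher. NF-kappaB targets had 0 of 9 past 2-fold higher and 1 past 2-fold lower, the chemokine CCL2 at -2.02. CXCL2 (0.55), NFKB2 (0.55) and RELB (0.54) were the highest of that list and CCL20 (-0.47) the next lowest.

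Other genes listed for antiviral action at membranes or at entry had a lower median than the 6 members, which had been chosen for their differences. Of 28 listed, 16 were named and 13 measured, with a median of 0.42. IFI6, IFI27, LY6E, GBP2, APOL1 and APOL6 are among those with no named probe set and were not analysed here. The median therefore describes the measured part of the list and not membrane-stage genes as a class. The 1 at least 2-fold higher was SHFL at 2.60, an RNA-binding inhibitor of viral frameshifting that stands in the list of intracellular effectors too. TSPAN6 (0.94) and SERINC1 (0.93), a relative of the virion inhibitors SERINC3 (0.42) and SERINC5 (0.00), came next, and NCOA7, whose short interferon-induced form acts in endosomes, lay lowest at -0.64. CH25H, the cholesterol hydroxylase, was below the level filter on both arrays, with a difference of -0.15. Of 56 listed intracellular interferon effectors, 39 were named and 37 measured. Of these 37, 33 passed 2-fold higher and 0 passed 2-fold lower, against 2.01% and 4% of all measured genes. Their median was 2.59. This list too was drawn up with earlier results of these data known, so nothing is read from the count. IFIT1 (6.90), IFIT2 (5.09) and IFIH1 (5.07) were highest and ISG20 (0.23) and STARD5 (0.08) lowest. On the control array IFIT1 read 2.78, IFIT2 3.63 and IFIH1 3.45, each under the level filter of 3.70. Like BST2 and IFI44L, they passed it only through the cMyc shRNA array, so a difference was built into their passing. The same held for HERC5 (3.68 on the control array) and MX2 (3.57). The sizes of these differences rest on low control values. With low values raised to 3.70, the list median stayed at 2.59.

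Genes that serve the members' biochemistry were examined as well. All 9 measured genes listed for viperin's iron-sulphur cluster and substrates had differences below 0, with a median of -0.33. Over all measured genes the median was -0.01 and the lower quartile -0.31. FDPS (-0.22), listed beside these, is 1 of the 9. CTPS1, which makes CTP, viperin's substrate, had a log2 level of 6.70 with the cMyc shRNA and 7.88 with the control shRNA, a difference of -1.18 (2.26-fold lower), the 1 of the 9 past 2-fold. CIAO3 (-0.49) and CIAO1 (-0.33), of the machinery that inserts iron-sulphur clusters, were lower by less, and CIAPIN1 (-0.11), NUBP1 (-0.08) and CTPS2 (-0.05) lay nearest to 0. Of the genes that build or trim GPI anchors, the kind BST2 carries, 6 of 29 were measured, with a median of 0.18. MPPE1, which removes a side branch of the anchor, was 2.04-fold higher, PGAP3 had 0.80, PGAP2 0.38, GPAA1 -0.15 and PGAP1 -0.40. Genes listed as partners of IFI44 or IFITM1 had 5 measured of 13 and 0 past 2-fold: OSBP (0.46), VCP (0.25), CD81 (-0.16), CHUK (-0.27) and FKBP5 (-0.34).

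**Figure D5:**
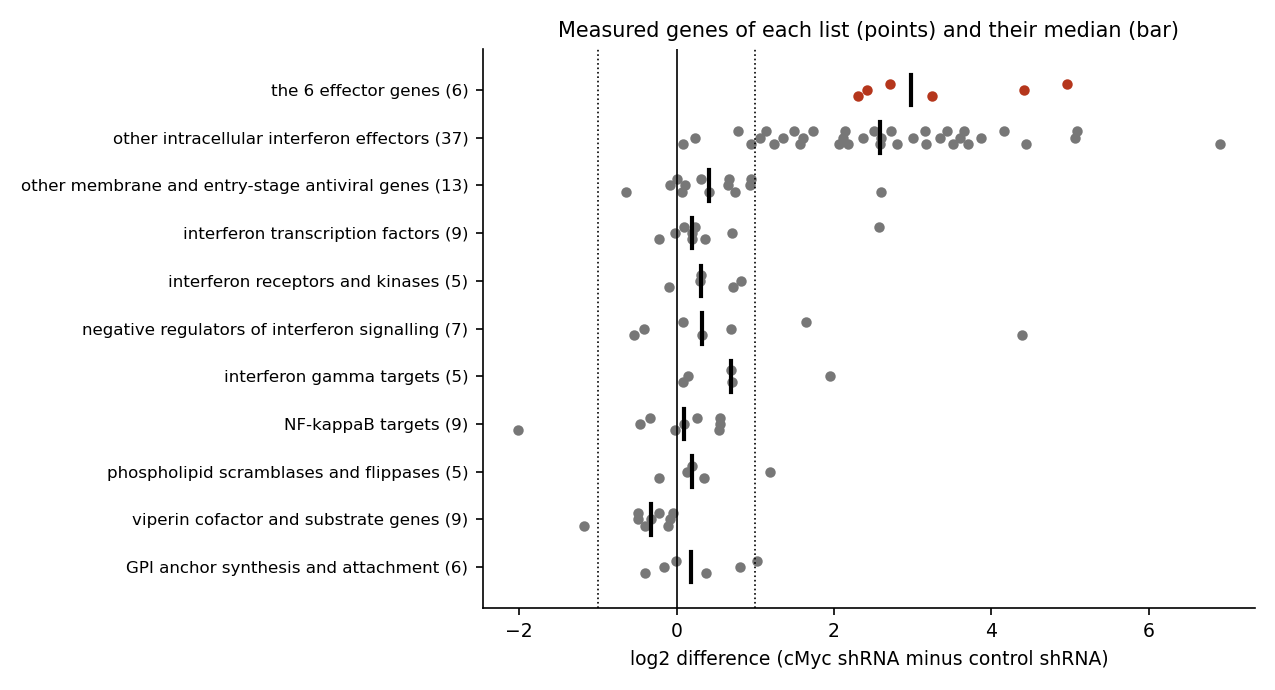
Log2 difference (cMyc shRNA minus control shRNA) of the 6 members (red) and of the measured genes of 10 lists (grey), with the number of genes in brackets and a black bar at the median. Dotted lines mark 2-fold in each direction. The medians are 2.98 for the members, 2.59 for intracellular effectors, 0.42 for other membrane and entry-stage genes and -0.33 for viperin cofactor and substrate genes.

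Likeness to each member was measured as the Euclidean distance between pairs of log2 values over the 2 arrays, which describes 2 points and compares probes of different genes. USP18 (0.41) and IFI44 (0.43) were nearest to RSAD2, ISG15 (0.14) and HERC6 (0.20) to IFITM1, SHFL (0.08) and the long noncoding RNA MIR31HG (0.47) to PLSCR1, and IFIT3 (0.11) and USP18 (0.12) to IFI44. BST2 was nearest to the protocadherin PCDHB5 (0.33) and to UNC13C (0.42), and IFI44L to MIR3621 (0.27) and BST2 (0.57).

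The promoter element was set against the difference for all measured genes. A promoter was found for 7900 of the 10258 measured genes, and 150 of these (1.90%) were at least 2-fold higher. With 1 or more cores, 33 of 278 genes (11.9%) passed 2-fold higher and 7 (2.52%) passed 2-fold lower. Without a core, 117 of 7622 (1.54%) passed 2-fold higher and 322 (4.22%) passed 2-fold lower. With the 6 members left out, the share with a core was 27 of 272 (9.93%). Genes with 2 or more cores, members left out, had 12 of 30 at least 2-fold higher, and those with 1 core had 15 of 242 (6.20%). With the interferon and antiviral lists left out too, 10 of 249 genes with a core (4.02%) were at least 2-fold higher, against 105 of 7588 without (1.38%). The split was then 2 of 19 with 2 or more cores (10.5%) and 8 of 230 with 1 (3.48%). Read the other way and with the members left out, 27 of the 144 genes at least 2-fold higher held a core, as did 17 of the 34 at least 4-fold higher, against 272 of all 7894 (3.45%). With a gamma-activated site 3.04% of 657 genes were at least 2-fold higher, a share that includes the 3 members with such a site. With an E-box, found in 0 members, 1.77% of 961 passed 2-fold higher and 4.89% passed 2-fold lower. These shares describe 2 arrays, and genes are not replicates.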

How the data were processed

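Expression was measured in 2 samples of HT1080 cells, 1 array each. The deposited table gives 1 log2 value per probe set, made by the authors with Affymetrix Expression Console, per the submitters' processing notes. How background, normalization and summarization were handled, and which version ran, is not given in the sources used here. Likewise unstated, the log base was inferred from the values, which run from 1.41 to 13.9, so folds assume base 2. The sorted values of the 2 columns differ by at most 0.12. Depth does not apply to arrays, and the number of arrays limits the precision.

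Symbols came from GEO's platform annotation, which names 16098 probe sets with 1 symbol each, 0 with several and leaves 37519 unnamed. List genes were matched by symbol or through RefSeq gene identifiers and synonyms (GRCh38.p14). The probe set with the highest mean stood for a gene, and genes whose mean reached the median of all probe sets (3.70) were called measured. Differences are cMyc shRNA minus control shRNA, counted at 2-fold, with no test. Promoter sequences are RefSeq's.

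The members and lists were chosen with earlier results of these data known. The text names all members, MYC, the interferon signalling genes on the array, the 3 highest and 2 lowest measured genes of other lists, neighbours, PLSCR and IFITM family members and the 2 most alike genes for each member, plus others chosen after their values were seen (RSAD1, BST1, CH25H, CIAO1, SERINC3, SERINC5 GBP4, CXCL10 and markers). Calculations used statsmodels 0.14.6, pandas 2.3.3 and numpy 2.4.6 under Python 3.11.15, and the counting was tested on simulated data. Alternatives were 3 scalings, 4 treatments of low values, another probe set rule and 2 other fold rules.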

Additional observations from a re-analysis of the deposited data

How the results depend on the processing

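Under median centring, quantile normalization and lowess the 6 members kept all their directions and stayed past 4-fold, with RSAD2 between 4.91 and 4.98 and IFI44L between 2.26 and 2.30 on the log2 scale, while the counts of measured genes ran from 180 to 228 higher and from 367 to 456 lower. Raising values below the median of all probe sets to that median gave 1.69 for BST2 and 1.24 for IFI44L, by construction, since only their control values were raised. The level filter at the 75th percentile left out BST2 and IFI44L, so that the median of the remaining 4 members was 3.83, and 126 measured genes were at least 2-fold higher. Other fold rules change the counts by definition, to 900 genes up and 1224 down at 1.5-fold and to 47 up and 49 down at 4-fold. Of 54 values under the alternatives, counting the members' differences and their median, 51 moved by less than the technical SD of 0.34. The same held for 109 of 112 list medians. Many of the 54 could not move. Each member has 1 probe set, so another probe set rule or level filter leaves its difference unchanged. Raising low values reaches only BST2 and IFI44L. Only the 3 scalings could move every member, so the count of 51 is not a measure of robustness. The technical SD was 0.35 without identical copies and 0.36 without probe sets under 0.1 apart in level, both chosen after seeing the data, as were the promoter shares with members or lists left out. No paired analysis was possible because each group has 1 array. The precision of a single value, and above all of the 2 low control values, is unknown without detection calls or replicates.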

Other observations

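The first annotated start of RSAD2, 11892 bases before the second, holds 0 response element cores but 4 copies of GAAACGAAA, in which the GAAA units stand 1 base apart in place of 2. This pattern was looked at after the sequences had been seen. Searched as GAAA, any base and GAAA on both strands, it occurs in 1097 of 35116 promoters (3.12%), and RSAD2's first start is the 1 promoter in the table with 4 or more copies. The stretch runs from position -162 to -42 relative to that start and is shown for this repetition, with the matches in capitals.
RSAD2, chr2:6865723-6865843, plus strand, GRCh38.p14: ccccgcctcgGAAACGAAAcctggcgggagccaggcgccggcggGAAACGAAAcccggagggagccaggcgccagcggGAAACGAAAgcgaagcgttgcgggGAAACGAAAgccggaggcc
PLSCR1 and IFI44 also hold 1 match of this spacing at each of their 2 annotated starts, so 3 of the 6 members have one. Over measured genes with a match and with the members left out, 17 of 262 (6.49%) were at least 2-fold higher, against 144 of all 7894 (1.82%). The array value of RSAD2 does not tell its starts apart.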
